A study of Mus musculus with 6 samples.

Results

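The 2 embryo pools titled replicate 1, one from each culture cavity, were set against the 4 pools titled replicates 2 and 3. The pools came from 1 series of 6 arrays, and 19938 genes were measured in each. All embryos were of the outbred mouse strain CD1, collected at embryonic day 5 and held in culture for 8 hours, in a narrow cavity of 90 µm diameter or a wide one of 180 µm. Each pool held 30 whole embryos, and the pools are called narrow 1 to 3 and wide 1 to 3 here. There was no genetic change and no other treatment, and no uncultured embryos were among the samples. The pools were chosen by the values themselves: the arrays numbered 1 stood apart when all genes were viewed together, and the split was made after that was seen. The differences of replicate 1 from replicates 2 and 3 are therefore given as a description, with standard errors (SE). Where genes past a threshold are counted for this split, the count gives its size and is not a test, and no gene of it is reported as significant. The labels do not say what a replicate number stands for, so a day of collection, a litter group, an RNA preparation and an array run cannot be told apart. The 2 pools of replicate 1 share that number and are not independent repeats of it. The question put to the split was whether developmental progress or the share of each tissue differed between replicate 1 and the other pools.

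At this stage the embryo is an egg cylinder of 3 main tissues. The epiblast, which forms the body, is leaving naive pluripotency for a formative state. The extraembryonic ectoderm, a trophoblast tissue, sits above it, and the visceral endoderm, which feeds and patterns the embryo, wraps both. Pou5f1, Elf5 and Apoa1, markers of these 3 tissues, had log2 signals of at least 11.75, 11.75 and 12.95 in each of the 6 arrays. Whole embryos were measured, so fewer cells of a type and less RNA per cell cannot be told apart. Pluripotent cells also carry characteristic small RNAs: microRNAs are short RNAs that repress messenger RNAs through a seed sequence, and several may be cut from one long precursor. The Mir302 cluster is a hallmark of pluripotent cells, the Mir17 cluster promotes proliferation, and the imprinted region between Dlk1 and Dio3 makes the long noncoding RNAs Meg3 and Rian and many microRNAs from the maternal chromosome. Small nucleolar RNAs guide the chemical modification of ribosomal RNA and are mostly cut from introns of host genes.

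Most of the microRNA genes with the largest differences fell into a few families. Their mature sequences are shown so that shared seeds can be seen, although the values below were not read by arm. The sequences are RefSeq's for GRCm38.p6, written 5′ to 3′, with the seed (bases 2 to 8) in capitals.
mmu-miR-377-3p: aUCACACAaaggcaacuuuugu
mmu-miR-382-5p: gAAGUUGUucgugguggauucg
mmu-miR-127-3p: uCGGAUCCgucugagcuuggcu
mmu-miR-302b-3p: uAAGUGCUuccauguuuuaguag
mmu-miR-302d-3p: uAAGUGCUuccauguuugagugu
mmu-miR-302c-3p: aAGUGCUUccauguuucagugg
mmu-miR-367-3p: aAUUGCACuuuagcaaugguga
mmu-miR-363-3p: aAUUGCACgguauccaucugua
mmu-miR-19a-3p: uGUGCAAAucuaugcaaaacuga
mmu-miR-19b-3p: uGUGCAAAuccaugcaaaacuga
The mature form mmu-miR-377-3p lies at chr12:109740553-109740574 on the plus strand, within the imprinted region. The forms mmu-miR-302b-3p and mmu-miR-302d-3p share the seed AAGUGCU, mmu-miR-367-3p and mmu-miR-363-3p share AUUGCAC although their genes lie on chromosomes 3 and X, and mmu-miR-19a-3p and mmu-miR-19b-3p share GUGCAAA. An array row named for a microRNA gene does not tell the mature form from its precursor.

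Over all genes, the 2 replicate 1 arrays were more alike than any other pair. The root mean square difference between narrow 1 and wide 1 was 0.0940 on the log2 scale, although their cavities differed. The 8 pairs of a replicate 1 array with another array differed by 0.118 to 0.137, and the 6 pairs among narrow 2, narrow 3, wide 2 and wide 3 by 0.101 to 0.116. The first principal component held 38.5% of the variance and placed narrow 1 at -10.6 and wide 1 at -8.01, with the other 4 arrays between 2.76 and 5.87. The difference of narrow 1 from narrow 2 and 3 and that of wide 1 from wide 2 and 3, which share no array, correlated at r = 0.516 over genes, and 69.1% of genes had the same sign in both. Genes are not independent replicates, and this agreement is the pattern by which the pools were picked.

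**Figure D1:**
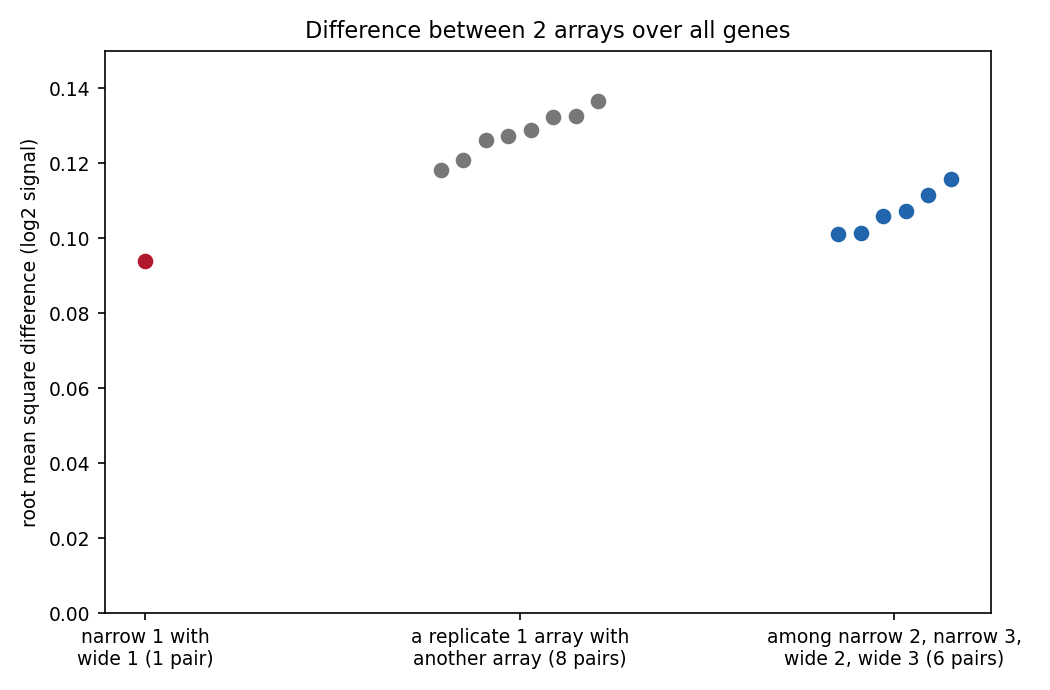
Each point is the root mean square difference between 2 arrays over 19938 genes (log2 signal), grouped by whether both, one or neither array is of replicate 1. The pair narrow 1 and wide 1 sits lowest at 0.0940, and the 8 pairs that mix replicate 1 with another array sit highest, from 0.118 to 0.137.

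The differences were small for most genes. The median absolute difference of replicate 1 from replicates 2 and 3 was 0.061 on the log2 scale, against 0.043 for replicate 2 from replicate 3. Only 18 genes were higher by 0.5 or more in replicate 1 and 5 were lower by as much. Both replicate 1 arrays lay above all 4 others for 2434 genes (12.2% of those tested) and below them for 3970 (19.9%). As a measure of the size of the split only, the limma fit with cavity as a covariate put 1 gene past the threshold in the higher direction (0.00502%) and 0 in the lower (0%), with 4161 at an unadjusted p under 0.05. The count differed between fits: it was 696 when only genes above the median signal were fitted (359 higher, 337 lower), 851 with a trend and robust prior (464 higher, 387 lower) and 4 when same-numbered arrays were blocked. Of these, 541 genes were in both of the larger sets, 77.7% of the 696 and 63.6% of the 851.

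Lower values in replicate 1 were more common among genes of low signal. In the 4 dimmest deciles of mean signal the median difference lay between -0.047 and -0.058, while in the brightest decile it was 0.018. After quantile normalization of the deposited values all 10 deciles had medians between -0.017 and -0.0038, and the median over all genes moved from -0.024 to -0.0096. Olfactory receptor genes, which belong to nasal neurons, followed the dim deciles: 821 of the 1027 measured were lower in replicate 1 with a median of -0.054, and that median was -0.014 after quantile normalization. The median differences of gene lists below carry this shift with signal.

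**Figure D2:**
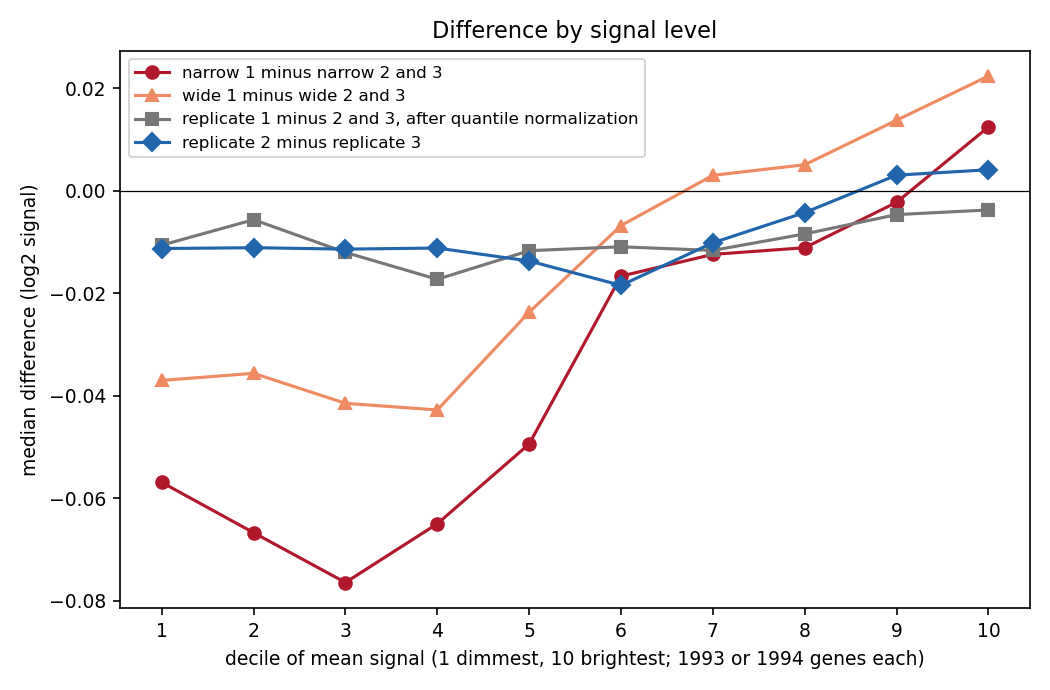
Median difference (log2 signal) in each decile of genes ranked by mean signal, for narrow 1 and wide 1 against the other arrays of their cavity, for both together after quantile normalization, and for replicate 2 minus replicate 3. The replicate 1 curves run from below -0.03 in dim genes to above 0.01 in the brightest, and the curve after quantile normalization stays within -0.017 and 0.

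Genes of varied function led in the higher direction. Gstm3, a glutathione transferase, had log2 signals of 8.44 in narrow 1 and 8.46 in wide 1, against 8.08, 8.09, 8.08 and 8.05 in narrow 2, narrow 3, wide 2 and wide 3, a difference of 0.37 ± 0.04 (SE of the limma fit, 2 against 4 arrays, as for every difference below). Tbc1d7, a subunit of the TSC complex that restrains mTORC1, read 9.64 and 9.48 in replicate 1 against 9.18, 9.24, 8.98 and 9.10. For both genes the groups did not overlap, and the replicate 1 arrays of both cavities were high. Cyct, the cytochrome c of the testis, read 8.76 and 8.65 against 7.98, 8.06, 8.26 and 8.17, a difference of 0.59 ± 0.07. H3c15, a histone H3 gene, read 7.34 and 7.17 against 6.58, 6.60, 6.82 and 6.60, a difference of 0.60 ± 0.08. These were the largest among the 14 leading genes. The other 10 differed by 0.29 to 0.38. Of these, 4 were zinc finger genes (Zfp317, Zfp62, Zbtb26 and Zfp709), and the rest were Gabra3, a GABA receptor subunit, Elp4, a subunit of Elongator, Caps2, Frzb, Pstpip2 and Uchl1. Frzb, a secreted Wnt antagonist, differed by 0.35 ± 0.05, and Uchl1, a ubiquitin hydrolase, by 0.37 ± 0.05.

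In the lower direction the lowest difference of any gene was -1.09 ± 0.45, that of the predicted gene Gm773, which also separated replicates 2 and 3. Among the 14 leading genes the first was Rmrp, the RNA of the RNase MRP enzyme that processes ribosomal RNA. Its signals were 12.51 in narrow 1 and 12.47 in wide 1 against 12.90, 12.92, 12.85 and 12.87 in the other arrays, a difference of -0.39 ± 0.03. Both replicate 1 arrays were low, and the arrays of each group lay close together beside the gap between the groups. Tgfb1, the growth factor, read 8.32 in both replicate 1 arrays and between 8.57 and 8.61 in the other 4. L1cam and Thy1, cell surface proteins of the immunoglobulin family, differed by -0.28 ± 0.04 each, and Mvd, an enzyme of cholesterol synthesis, by -0.32 ± 0.05. Ikzf3, a lymphoid transcription factor, and Evx2, a homeobox gene, differed by -0.31 ± 0.04 and -0.28 ± 0.04. The other 7 (Ceacam10, Gprin2, Exoc3l4, Slitrk1, Lypd10, Faap100 and Zbtb44) lay between -0.44 and -0.24. All 28 leading genes were selected by the smallest p of this split, so the separation of their arrays is no finding.

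**Figure D3:**
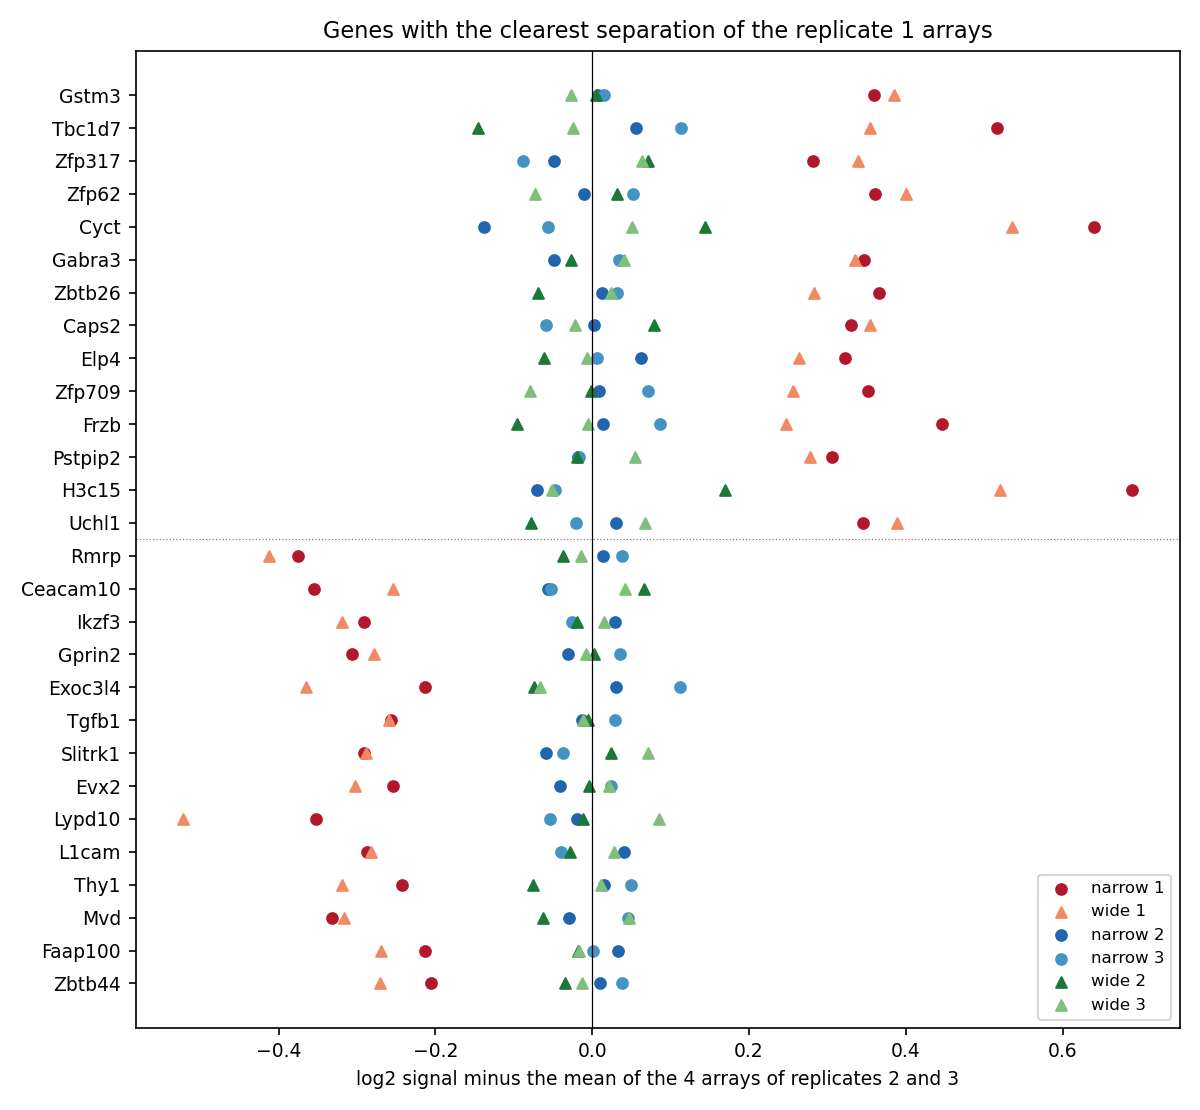
Signal of each array for the 28 leading genes, as log2 signal minus the mean of narrow 2, narrow 3, wide 2 and wide 3 (circles narrow, triangles wide). In the upper 14 genes both replicate 1 arrays lie to the right of the other 4 and in the lower 14 to the left, with gaps of 0.24 to 0.60 between the group means.

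Small RNA genes made up most of the largest differences in the higher direction only. Of the 18 genes higher by 0.5 or more, 8 were microRNA genes and 4 small nucleolar RNA genes. Of all 19938 genes, 300 were microRNA genes and 54 small nucleolar or Cajal body RNA genes. On the lower side the lowest microRNA difference was -0.30 and the lowest of the small nucleolar list -0.39, so neither class reached -0.5. Of the 300 microRNA genes, 47 lay above (15.7%) and 58 below (19.3%) in both replicate 1 arrays. Over all genes these shares were 12.2% and 19.9%, near those of the microRNA genes. The microRNA median was -0.031 (-0.0028 after quantile normalization), against -0.024 over all genes. Mir377 had the largest difference of the microRNA genes. Its signals were 7.16 in narrow 1 and 7.58 in wide 1, against 6.25, 6.31, 6.48 and 6.44 in narrow 2, narrow 3, wide 2 and wide 3. The replicate 1 arrays were both high, wide 1 more so, and the difference was 1.00 ± 0.06. The next largest were Mir302b at 0.88 ± 0.12, Mir302c at 0.73 ± 0.07 and Mir297b at 0.69 ± 0.17. On the lower side Mir666 differed by -0.30 ± 0.05, Mir425 by -0.27 ± 0.05, Mir210, a microRNA of the hypoxia response, by -0.25 ± 0.04 and Mir713 by -0.24 ± 0.08.

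Many, but not all, of the microRNAs that were higher lay together on the chromosomes. This grouping was made after the values were seen, so its counts describe and do not test. Clusters were runs of at least 3 measured genes on 1 strand with gaps of at most 50000 bases, of which there were 14 with 85 genes. In the Mir302b to Mir367 cluster at chr3:127545228-127545807, plus strand, 5 of 5 genes were higher, 4 with no overlap of the groups, and the median difference was 0.56 (0.73 for narrow 1 and 0.39 for wide 1). Mir302b read 7.48 and 7.57 in narrow 1 and wide 1 against 6.45, 6.93, 6.61 and 6.60. Mir302c read 7.35 and 7.30 against 6.49, 6.69, 6.53 and 6.66. Both showed replicate 1 high in both cavities. Mir302d, with the same seed as Mir302b, overlapped: 8.36 and 8.09 against 7.92, 8.26, 7.72 and 7.92.

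In the Mir17 to Mir19b-1 cluster at chr14:115043671-115044506, plus strand, 5 of 5 genes were higher with no overlap, with a median of 0.39 (0.22 for narrow 1 and 0.57 for wide 1). Mir19a read 6.18 and 6.32 against 5.58, 5.88, 5.75 and 5.75, a difference of 0.51 ± 0.08. Mir18 differed by 0.43 ± 0.08, Mir19b-1 by 0.39 ± 0.09, Mir17 by 0.35 ± 0.08 and Mir20a by 0.19 ± 0.07. The related cluster Mir363 to Mir106a on chromosome X had a median of 0.049, and only Mir363, at 0.44 ± 0.09, stood clear of the other arrays. Paralogs within these clusters have near-identical sequences, so signal between them may be shared. The 173 matched microRNA genes outside all clusters had a median of -0.052, with 11 above, among them Mir186 at 0.36, and 42 below. The 300 microRNA genes had a median signal percentile of 17.3. In deciles 1 to 4 of mean signal, medians over all genes lay between -0.047 and -0.058. There 2.4% to 4.5% of genes lay above and 19.4% to 24.4% below. The median outside clusters was thus within the range of dim genes.

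The third group lay in the imprinted region between Dlk1 and Dio3 on chromosome 12. Of 47 genes measured there, 40 of them microRNAs, 37 were higher in replicate 1, 21 lay above all 4 other arrays (against 12.2% of all genes) and 3 below (against 19.9%), and the median was 0.14. Meg3, the maternally expressed long noncoding RNA of the region, read 9.79 in narrow 1 and 10.41 in wide 1 against 9.32, 9.53, 9.56 and 9.55, a difference of 0.61 ± 0.11. Rian, a noncoding RNA next to it that hosts small nucleolar RNAs, differed by 0.28 ± 0.08. Mir127 read 8.26 and 8.71 against 7.99, 7.88, 7.96 and 7.90. Mir382 read 8.57 and 8.81 against 7.90, 7.98, 8.38 and 8.21. In each of these genes wide 1 was the highest array, narrow 1 was second and the groups did not overlap. Over the 47 genes the median difference was 0.062 for narrow 1 against narrow 2 and 3 and 0.22 for wide 1 against wide 2 and 3.

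The genes of the region did not all move together. Dlk1, a paternally expressed growth regulator, read 8.84 and 8.91 against 9.08, 9.03, 8.96 and 9.04, a difference of -0.15 ± 0.05. The other paternally expressed genes, Rtl1 and Dio3, differed by 0.10 ± 0.10 and 0.05 ± 0.05, with overlapping arrays. Among the microRNAs, those from Mir379 to Mir369 had 28 of 29 members higher and a median of 0.18, while the upstream run from Mir673 to Mir370 had 4 of 10 higher and a median of -0.0093. Mir666, Mir431 and Dlk1 were the 3 genes below all 4 other arrays.

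Small nucleolar and Cajal body RNA genes, 54 measured, had a median of 0.15 before and after quantile normalization, the highest median of the 38 lists examined. In this list 23 lay above all 4 other arrays (42.6%, against 12.2% of all genes) and 9 below (16.7%, against 19.9%). The Snord genes, guides of ribose methylation, carried this: their median was 0.19 over 31 genes, against -0.0084 over 20 Snora genes, guides of pseudouridylation, and 0.15 over 3 Scarna genes. Snord14e read 9.06 and 9.75 against 8.62, 8.80, 8.90 and 8.81, and Snord42a read 7.66 and 7.74 against 6.88, 7.03, 7.41 and 7.07. Snord37 and Snord58b differed by 0.56 ± 0.09 and 0.52 ± 0.09. Others were lower: Snord53 by -0.39 ± 0.10, Snord118, the U8 RNA needed to process the large ribosomal subunit, by -0.37 ± 0.11, and the paralogs Snora73b and Snora73a by -0.33 ± 0.07 and -0.27 ± 0.07. Among genes above the median signal the list's median was 0.047, and without wide 1 or without narrow 2 it was 0.094. Gas5, a host of many small nucleolar RNAs, was covered by 4 array rows that disagreed, at 1.34 ± 0.09, 0.70 ± 0.07, 0.38 ± 0.06 and 0.14 ± 0.06, the last being the brightest row and thus the one used for the gene.

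**Figure D4:**
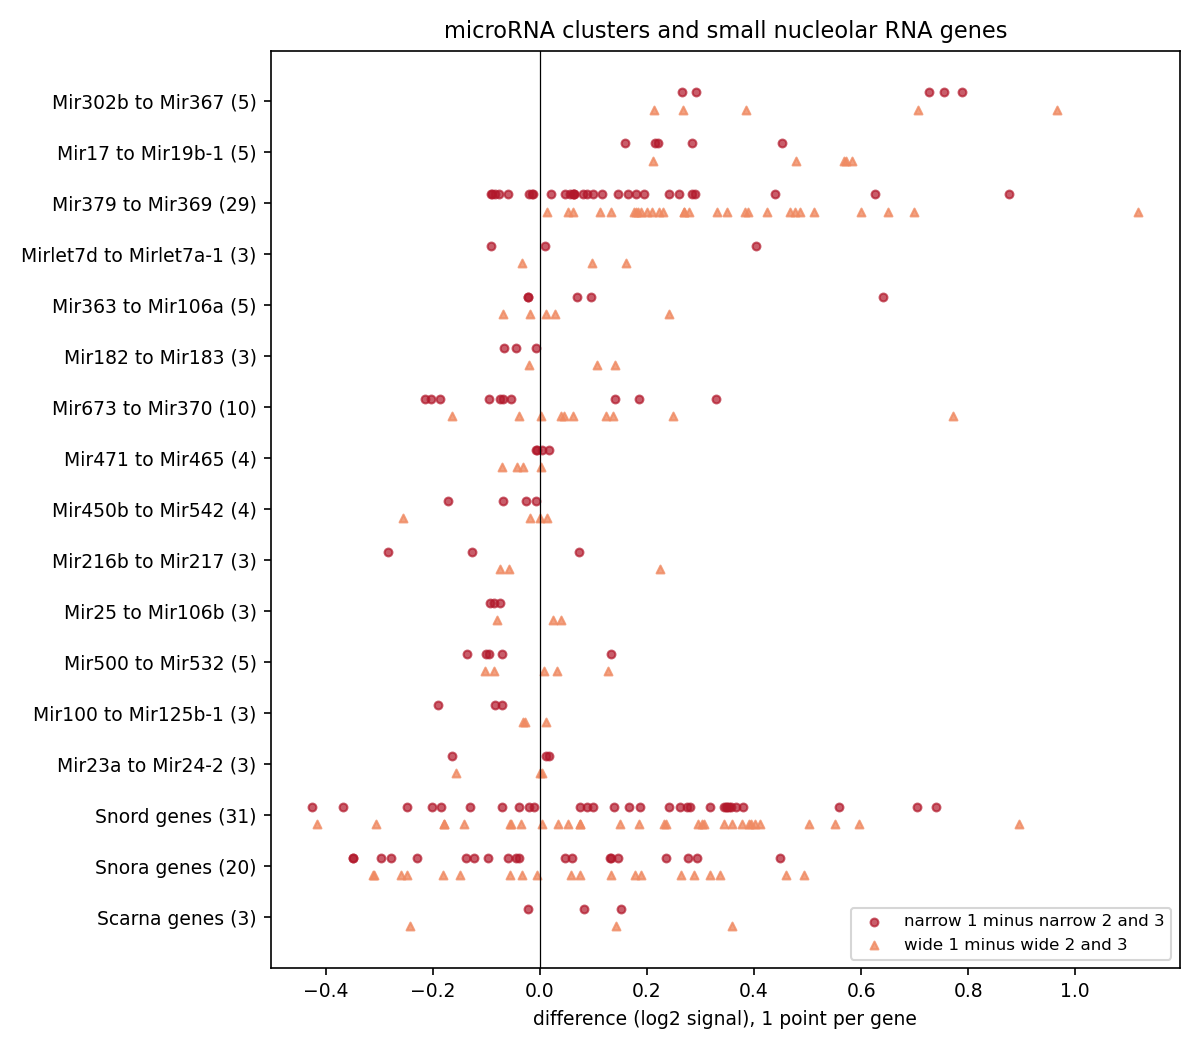
Each point is 1 gene: its difference (log2 signal) between narrow 1 and the mean of narrow 2 and 3 (circles) and between wide 1 and the mean of wide 2 and 3 (triangles), for the 14 microRNA clusters and 3 classes of small nucleolar RNA, with the number of genes in brackets. The points of the Mir302b and Mir17 clusters all lie to the right of 0 and those of most other clusters lie around 0.

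Core epiblast genes differed little. Of 16 measured, 3 lay above (18.8%, against 12.2% of all genes) and 0 below (0%, against 19.9%), and the median was 0.017. The median signal percentile of these 16 was 85.5. In decile 9 of mean signal 24.6% of genes lay above and 18.6% below, with a median of 0.0079. Utf1, a chromatin factor of pluripotent cells, read 12.55 and 12.60 against 12.40, 12.36, 12.42 and 12.36. Pou5f1 and Sox2, the core pluripotency factors, differed by 0.02 ± 0.04 and 0.04 ± 0.05. Nanog read 9.13 and 9.40 against 9.20, 9.46, 9.34 and 9.53, a difference of -0.12 ± 0.09 with overlapping arrays. Of 15 markers of the earlier, naive state, 5 were higher and 10 lower, with a median of -0.061, or -0.036 without narrow 2. In this list 3 lay above (20%) and 3 below (20%). Fbxo15 and Klf4 differed by 0.31 ± 0.07 and 0.15 ± 0.04, while Klf2 and Tfcp2l1 differed by -0.15 ± 0.05 and -0.13 ± 0.04.

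Of 18 genes of the later, post-implantation epiblast, 13 were higher and 5 lower. Their median was 0.029, or 0.056 without narrow 1 and 0.014 without wide 2. In this list 4 lay above (22.2%, against 12.2% of all genes) and 2 below (11.1%, against 19.9%). The list's median signal percentile was 85.2, and in decile 9 of mean signal 24.6% of genes lay above and 18.6% below. Otx2, a homeobox factor of the formative epiblast and anterior endoderm, read 11.39 and 11.43 against 11.09, 11.25, 11.03 and 11.20. Car14 read 9.17 and 9.32 against 8.72, 9.05, 8.61 and 8.96. Both were high in replicate 1, and in both the arrays numbered 2 were the lowest. Pou3f1, a neural and epiblast POU factor, went the other way, with 11.20 and 11.30 against 11.42, 11.47, 11.40 and 11.44, a difference of -0.19 ± 0.04. Fgf5, a standard marker of this state, differed by 0.07 ± 0.04. Among 13 genes of the primitive streak and mesoderm, 0 lay above (0%) and 2 below (15.4%), Cdx1 at -0.18 ± 0.05 and Mesp1 at -0.16 ± 0.05. The median of these 13 was -0.013, or -0.031 without wide 2. Markers of early and late stages thus lay on both sides, although naive genes were more often lower and post-implantation genes more often higher. After quantile normalization the medians of these 2 lists were -0.059 and 0.016. Whether the pools differed in stage was not tested.

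Tissue lists had small median differences. In the extraembryonic ectoderm list 0 of 17 genes lay above (0%, against 12.2% of all genes) and 5 below (29.4%, against 19.9%). The median was -0.045 (-0.062 after quantile normalization). Without narrow 1 this median was -0.022, and without wide 1 it was -0.068. Rhox6, a placental homeobox gene, read 9.34 and 9.37 against 9.57, 9.58, 9.50 and 9.57. The factors that define the tissue differed by less: Cdx2 by -0.11 ± 0.04, Elf5 by -0.03 ± 0.04 and Eomes by 0.02 ± 0.04. In the ectoplacental cone and giant cell list, 1 of 14 lay above (7.1%) and 4 below (28.6%). The median of this list was 0.0066 and ran from -0.048 to 0.021 as arrays were left out. Tpbpa, the marker of the cone, read 4.87 and 4.91 against 5.14, 5.21, 5.08 and 4.96. Its mean signal was at percentile 3.8 of all genes, in the dimmest decile, where the median difference was -0.047.

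The general visceral endoderm list had 3 above (12%, against 12.2% of all genes) and 6 below (24%, against 19.9%) of 25. Its median of -0.013 ran from -0.038 without narrow 1 or narrow 3 to 0.0087 without wide 1. Of its secreted products, Apoa1, an apolipoprotein, differed by 0.01 ± 0.04 and Ttr, a carrier of thyroid hormone, by -0.01 ± 0.04. Ihh, a hedgehog ligand of this tissue, read 9.22 and 9.27 against 9.64, 9.45, 9.49 and 9.30. Of 12 distal and anterior visceral endoderm genes, 2 lay above (16.7%) and 0 below (0%). These 2 were Otx2 and Hesx1, a homeobox gene, which read 8.79 and 8.75 against 8.16, 8.58, 8.31 and 8.73. Cer1, a secreted Nodal inhibitor of these cells, read 9.92 in narrow 1 and 9.13 in wide 1 against 9.48, 9.80, 8.81 and 9.15, so its arrays followed the cavity and overlapped between the replicate groups. The parietal endoderm list had 0 above and 5 below of 15 (33.3%, against 19.9% of all genes), with a median of -0.048, or -0.029 without wide 1. These 5 were Nid1, at -0.18 ± 0.04, Col4a2, Col4a1, Lama1 and Lamc1, which code for proteins of the basement membrane.

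Genes of maternal decidua lay on both sides. In the decidua and stroma list 2 of 18 lay above (11.1%, against 12.2% of all genes) and 2 below (11.1%, against 19.9%). The median was -0.023, close to that of all genes, or -0.0044 without wide 2. Of 16 blood and endothelium genes measured, 15 were lower and 5 lay below the other arrays (31.25%). Their median of -0.069 was -0.029 after quantile normalization. The mean level of this list was highest in wide 3, at 7.25 against 7.07 in each replicate 1 array and 7.13 to 7.14 in the other 3. Lyz2, a myeloid lysozyme, read 7.50 in wide 3 and 6.05 to 6.58 in the other 5 arrays. Without wide 3 the median of the list was -0.066. The part of blood cells in the other differences was not tested.

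**Figure D5:**
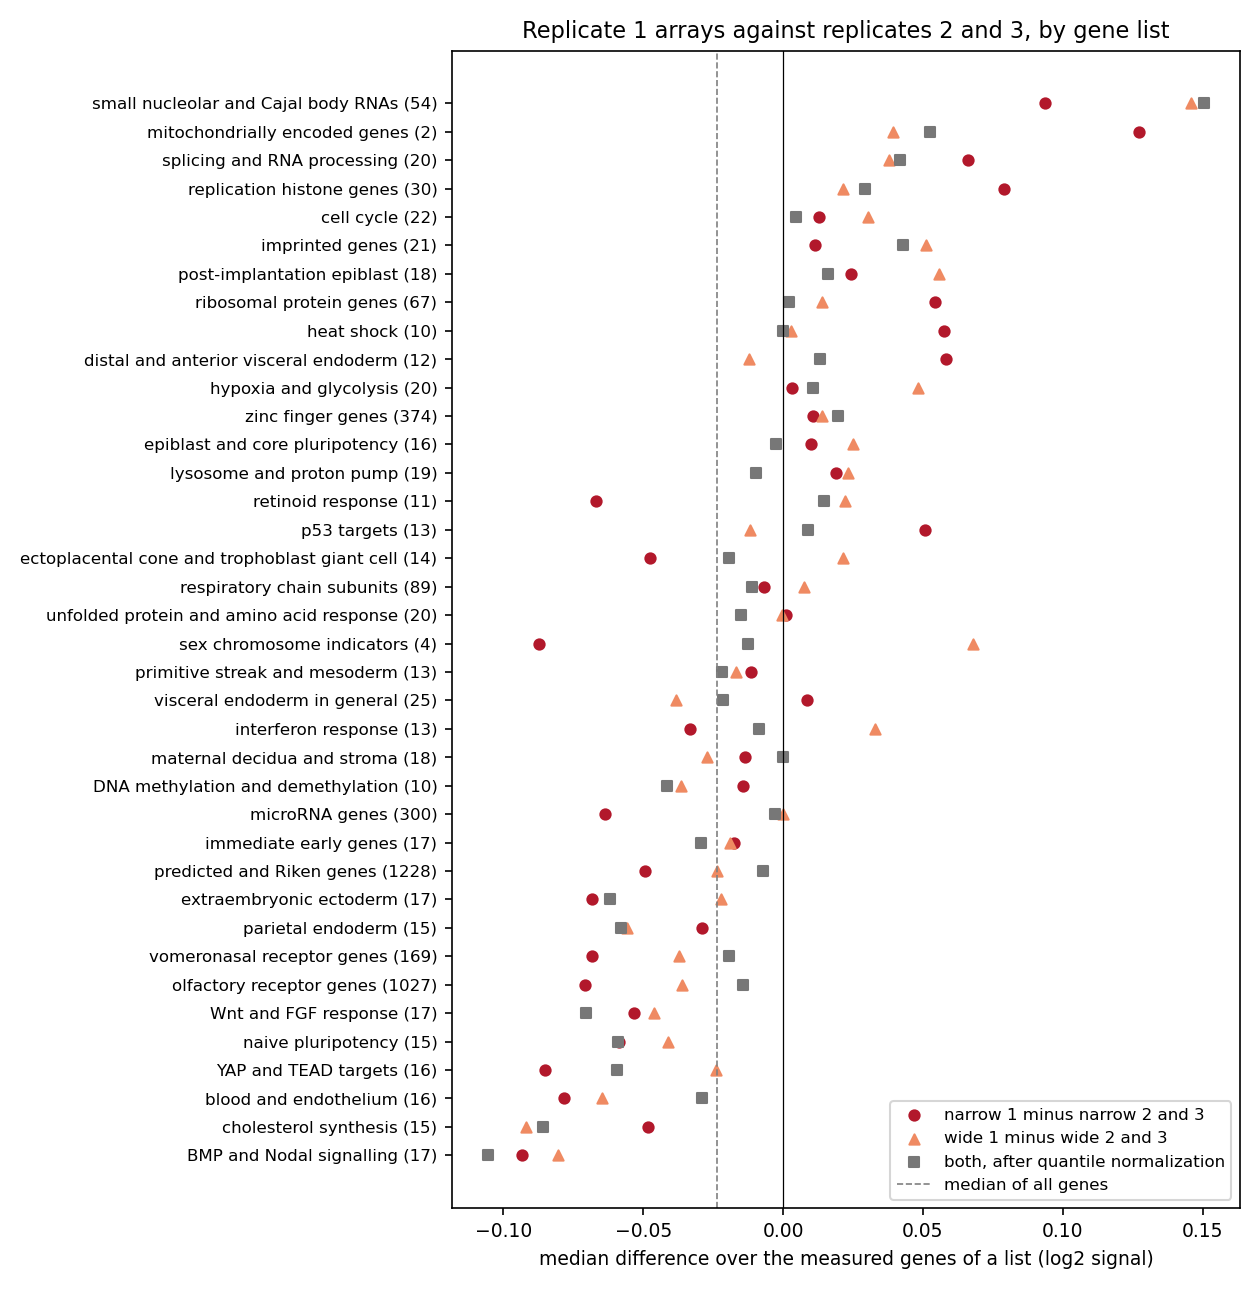
Median difference over the measured genes of each of the 38 lists (log2 signal), for narrow 1 against narrow 2 and 3 (circles), wide 1 against wide 2 and 3 (triangles) and both after quantile normalization (squares), with the number of genes in brackets and a dashed line at the median of all genes. Small nucleolar RNA genes stand at the top, and cholesterol synthesis and BMP and Nodal signalling at the bottom.

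Cholesterol synthesis genes all lay on 1 side. The 15 measured genes were all lower in replicate 1, 9 of them below all 4 other arrays (60% against 19.9% of all genes), with a median of -0.070 that was -0.086 after quantile normalization. Mvd, which makes isopentenyl diphosphate, read 10.46 and 10.48 against 10.76, 10.84, 10.73 and 10.84. Srebf2, the transcription factor that drives the pathway, read 11.94 in both replicate 1 arrays against 12.11, 12.09, 12.07 and 12.14. Sqle, a rate-limiting oxidase of the pathway, differed by -0.12 ± 0.04 and Hmgcs1 by -0.07 ± 0.04. Genes of 1 pathway are regulated together, so they are not 15 separate measurements.

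Signalling lists had medians below that of all genes. For BMP and Nodal signalling, 3 lay above (17.6%, against 12.2% of all genes) and 6 below (35.3%, against 19.9%) of 17, with a median of -0.088. Acvr2b, a receptor for Nodal, read 9.59 and 9.62 against 9.87, 9.83, 9.81 and 9.86. Nodal itself differed by -0.12 ± 0.04, Lefty2, its inhibitor, by -0.24 ± 0.06, and Foxh1, a transcription factor of the Nodal pathway, by 0.17 ± 0.04. Of 17 Wnt and FGF response genes, 0 lay above and 5 below (29.4%), with a median of -0.058. The 5 were Axin2, a feedback inhibitor of Wnt, at -0.17 ± 0.04, Lgr5 at -0.20 ± 0.04, and Fgfr1, Phlda1 and Dusp6. Of 16 targets of the mechanosensitive factor YAP, 1 lay above (6.25%) and 6 below (37.5%), with a median of -0.065. Without narrow 1 this median was -0.024, against -0.012 over all genes. F3, tissue factor, was the one above, at 9.71 and 9.72 against 9.41, 9.58, 9.43 and 9.55, while Ccn2, the standard target, differed by 0.06 ± 0.05.

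Splicing genes lay mostly higher, as bright genes did. Of 20 splicing and RNA processing genes, 17 were higher, 9 lay above all 4 other arrays (45%, against 12.2% of all genes and 29.5% of the brightest decile) and 0 below. The median was 0.060 (0.042 after quantile normalization), or 0.038 without narrow 1. Clk1, a kinase of splicing factors, differed by 0.15 ± 0.05 and the splicing factor Srsf3 by 0.11 ± 0.04. In the cell cycle list 12 of 22 lay above (54.5%) and 5 below (22.7%, against 19.9% of all genes and 13.9% of the brightest decile). Ccnd1, cyclin D1, differed by 0.15 ± 0.06 and Cdkn1c, an imprinted inhibitor of the cycle, by -0.20 ± 0.05. The list's median of 0.040 was 0.0045 after quantile normalization and 0.013 without wide 1. Of 30 replication histone genes, 9 lay above (30%, against 12.2% of all genes) and 3 below (10%, against 19.9%). In decile 8 of mean signal, where their median percentile of 71.4 falls, 18.7% of genes lay above and 19.3% below. The histone list had a median of 0.041 (0.021 without narrow 1, 0.079 without wide 1). H2ac4 read 10.39 and 10.46 against 10.20, 10.13, 10.16 and 10.21. Of 67 ribosomal protein genes, 24 lay above (35.8%, against 12.2% of all genes and 29.5% of the brightest decile). Another 4 lay below (5.97%, against 19.9% and 13.9%). Their median of 0.026, however, was 0.0020 after quantile normalization, 0.014 without narrow 1 and 0.054 without wide 1.

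Sex-linked genes differed between pools. Xist, the noncoding RNA of the inactive X chromosome, read 11.13 and 11.50 in replicate 1 against 10.52, 11.04, 11.03 and 11.06, a difference of 0.40 ± 0.13. Of the 3 genes of the Y chromosome on the list, Kdm5d differed by -0.09 ± 0.07 and Uty by -0.02 ± 0.06, and Eif2s3y read 9.36 and 9.34 against 9.24 to 9.58. Narrow 2 had the lowest Xist and the highest signal of these 3 genes, with 7.64 for Kdm5d, 8.68 for Uty and 9.58 for Eif2s3y, and it was the highest array for 7 of the 9 genes measured on that chromosome. The share of female embryos in a pool is not given in the labels, and its part in the other differences was not tested.

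The comparisons that follow did not choose the pools and were tested with limma, adjusted over all 19938 genes. Replicate 2 against replicate 3 asks whether other numbers differ as well. One gene was called (0.00502%): Gm773, a predicted X-linked gene, rose in replicate 2 by 1.35 ± 0.06 (limma, adjusted p = 0.0120). It read 9.79 in narrow 2 and 9.62 in wide 2, 8.44 in narrow 3 and 8.28 in wide 3, and 8.11 and 7.77 in replicate 1, so the 3 numbers formed separate levels whatever the cavity. Without narrow 2, narrow 3 or wide 2 it was no longer called (limma, adjusted p = 0.249, 0.0588 and 0.243). The next genes did not pass (limma, adjusted p from 0.153 to 0.274): Ms4a6d differed by 0.59 ± 0.05, Bnc2 by 0.48 ± 0.05, Slc6a14 by 0.54 ± 0.06 and Ocstamp by -0.56 ± 0.06. In each, both arrays numbered 2 lay on 1 side of both arrays numbered 3. Without adjustment 1529 genes (7.67%) had p under 0.05, and the count of calls was 16 among genes above the median signal and 54 with a trend and robust prior. Over all genes, the difference of narrow 2 from narrow 3 and that of wide 2 from wide 3 correlated at r = 0.087, with 51.8% of genes of the same sign. These 2 differences share no array. The 0.516 for replicate 1 above is no like measure. That pattern picked the pools, and each of its differences was taken from a mean of 2 arrays and not from a single array.

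Narrow against wide, with replicate 1 as a covariate, called 0 genes (0%) with limma, with 1287 at an unadjusted p under 0.05. The smallest adjusted p was 0.691 (limma). The 5 genes with the smallest p were Senp8 at 0.34 ± 0.04, Mir154 at -0.28 ± 0.04, Lefty1 at 0.31 ± 0.04, Thoc2l at -0.30 ± 0.04 and C3ar1 at 0.29 ± 0.04. Mir154, of the Dlk1 to Dio3 region, was high in both replicate 1 arrays and higher in wide than in narrow arrays at every number: 5.93 and 6.17 in replicate 1 against 5.47, 5.52, 5.75 and 5.82. Without the covariate the count at an unadjusted p under 0.05 was 678. With a trend and robust prior 1 gene was called, Hmox1, heme oxygenase, which rose in narrow cavities by 0.25 ± 0.03 (limma, adjusted p = 0.045).

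The last comparison asks whether the cavity difference in replicate 1 was unlike that in replicates 2 and 3. With limma 0 genes were called (0%), 574 had an unadjusted p under 0.05 and the smallest adjusted p was 1.00, so no such difference was detectable with 1 pool of each cavity in replicate 1. The gene with the smallest p was Cyp1a1, a cytochrome P450 that the aryl hydrocarbon receptor induces. It read 7.32 in wide 1 and between 6.39 and 6.53 in the other 5 arrays, an interaction of -0.85 ± 0.11. Cyp1b1, another target of that receptor, named here after its values were seen, read 6.75 in wide 1 and 6.30 to 6.46 elsewhere. Trim38, a ubiquitin ligase of innate immunity, read 6.78 in wide 1, 7.33 in narrow 1 and 7.47 to 7.75 in the other 4 arrays. These single-array values are those of wide 1 and have no repeat.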

How the data were processed

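Total RNA of 6 pools was hybridized to Affymetrix Mouse Gene 1.0 ST arrays with biotin labelling, per the labels' protocols and the design text. The deposited values are log2 signals, 1 per array row and sample, and were used as given. For the software and normalization behind them, nothing was given in the sources used here. Of 28853 rows, 21789 named 1 gene, 1621 several and 5443 none, and per gene the row with the highest mean was kept (999 of 19938 genes had more than 1). No filter on dim genes was applied, and precision is limited by having 6 arrays.

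Differences were fitted with limma 3.58.1 in R 4.3.3 (lmFit, eBayes, two-sided) on all 6 arrays, with cavity as a covariate, and adjusted by Benjamini-Hochberg with 0.05 as the threshold. The fit was run on simulated data with planted differences and independent noise. That run checks its estimates and not the dependence between same-numbered arrays. Deviations from the cavity means correlated at 0.516, 0.176 and 0.272 between same-numbered arrays. All were above 0.1, and by that rule the numbers were taken as pairs. The rule cannot show pairing of numbers 2 and 3. Deviations within a cavity sum to 0, so theirs also carry the replicate 1 difference, and narrow 2 with wide 3 gave 0.178. The difference of replicate 2 from replicate 3, which uses no replicate 1 array, correlated at 0.087 between the cavities.

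The split, the members and the 38 gene lists were chosen with earlier results of these data known. Named genes were the 14 per direction with the smallest p, without predicted, Riken, receptor and small RNA genes. Separation of the arrays was asked only of called genes, and none of these was called. Also named were, for each list, up to 3 called genes or else the 2 largest differences. Small RNAs gave the 4 largest each way, and each other comparison the 5 with the smallest p. Other genes were named after their values were seen. RefSeq (GRCm38.p6) gave microRNA positions and sequences for 258 of 300 microRNA genes. Alternatives were quantile normalization, a filter on signal, the mean over rows, a trend and robust prior, the replicate block and leaving out each array.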

Additional observations from a re-analysis of the deposited data

Results flagged for a closer look

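Each named gene and list mean was examined for 1 array far from the others among the 4 arrays of replicates 2 and 3, and 9 of 144 had one; chance gives about 1 in 20. In wide 3, Pstpip2 (8.00 against 7.93 in the others), Des (7.42 against 7.28 to 7.29) and the mean of the blood and endothelium list (7.25 against 7.13 to 7.14) were high. In wide 2, H3c15 was high (6.82 against 6.58 to 6.60), and Rhox6 (9.50 against 9.57 to 9.58) and Uqcr11 (11.65 against 11.73 to 11.74) were low. In narrow 3, Tgfb1 was high (8.61 against 8.57). In narrow 2, Xist (10.52 against 11.03 to 11.06) and Meg3 (9.32 against 9.53 to 9.56) were low.

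Rows that name no gene or several carried signal outside the gene comparisons. In a fit over all 28853 rows, run after the gene results were seen, 30 rows passed the threshold, which for this split gives a size and is not a test, and 22 of them named no gene or several. All 22 were higher in replicate 1, by 0.55 to 1.52. Among them 13 named the same 14 copies of 1 microRNA family and read nearly alike, so they stand for about 1 measurement, and 8 named no gene, of which row 10582896 differed most, with 10.29 in narrow 1 and 9.63 in wide 1 against 8.74, 8.56, 8.29 and 8.17.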

How the results depend on the processing

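For replicate 1 minus replicates 2 and 3, where counts past the threshold describe the split and do not test it, the count was 1 as fitted, 696 among genes above the median signal, 851 with a trend and robust prior, 4 with the replicate block and 30 over all rows, the last chosen after seeing the data; it ranged from 0 to 2 when arrays were left out. Genes above the other 4 arrays numbered 2799 to 4085 with an array left out, most without narrow 1, as fewer arrays have to separate. Genes below numbered 4554 to 7122, and 1779 among genes above the median signal. Calls between replicates 2 and 3 were 16 and 54 with the signal filter and the trend and robust prior, and 0 to 2 with an array left out. The cavity comparison gave 1 call with the trend and robust prior and 0 otherwise, its smallest adjusted p (limma) being 0.0838 with the replicate block. The interaction gave 0 under each alternative run, the replicate block included; without a replicate 1 array it could not be fitted.

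The epiblast median was -0.0025 after quantile normalization, 0.010 in narrow and 0.025 in wide arrays alone, and 0.0029 to 0.032 with an array left out. The visceral endoderm median was 0.0087 in narrow and -0.038 in wide arrays alone, and -0.038 to 0.0087 with an array left out. The cholesterol median was -0.048 in narrow and -0.092 in wide arrays alone, and -0.092 to -0.048 with an array left out. The small nucleolar RNA median was 0.047 above the median signal and 0.094 to 0.16 with an array left out. Of 38 lists, 24 had medians above that of all genes, and 19 to 24 under the alternatives. Of 171 named genes, 23 changed the sign of their replicate 1 difference under some alternative, as did 14 of 42 list and cluster medians. Mir377 had differences of 0.88 to 1.12 with an array left out. No spread between single embryos and no background level was measured.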
